A study of Mus musculus with 6 samples.

Results

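The stellate cell and matrix genes are 34 genes whose products build the extracellular matrix around the islet or mark the cells thought to lay it down. They were taken by symbol from the platform's probe annotation, and all 34 were found, on 70 of the 45037 probe sets that are not array controls. RNA of pancreatic islets, the hormone-secreting cell clusters of the pancreas, was hybridised to 6 Affymetrix arrays, 3 from OF1 male mice given bisphenol A (BPA), a compound of plastics with weak oestrogenic activity, and 3 from OF1 male mice given the corn oil vehicle, here called control. All animals were 10 weeks old, and no transgene or mutation is named for either group. The labels describe the exposure in 3 ways that do not match. One is subcutaneous injection of 50 µg/kg, adding up to 100 µg/kg/day over 4 days, with islets taken 16 hours after the last injection; the protocol text has 2 days of such dosing, and the source name has 1 nM for 48 hours. The labels call the arrays of each group biological replicates and state no number of animals behind a sample.

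Pancreatic stellate cells are resident mesenchymal cells that store vitamin A when quiescent and, once activated, express smooth muscle actin and secrete fibrillar collagen. Islet capillaries are wrapped by pericytes, which carry the receptor for platelet-derived growth factor, and the capillary wall contributes the basement membrane that beta cells rest on, since beta cells make little of their own. Fibrillar collagens, collagen VI and small proteoglycans form the looser interstitial matrix of the islet capsule and of the septa to exocrine tissue. The members are therefore expressed by several cell types, and bulk islet RNA does not separate them.

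The promoter sequences of 4 members that followed the same order of extreme arrays, described below, are shown so that the genes can be compared at their starts. Each is the 250 bases before the annotated start, from RefSeq on GRCm38.p6, with capitals marking the letters CCAAT or TATAAA on either strand. Col1a2 lies at chr6:4505368-4505617, Col3a1 at chr1:45311288-45311537, Timp1 at chrX:20869916-20870165 and Vim at chr2:13574061-13574310, all on the plus strand.
Col1a2: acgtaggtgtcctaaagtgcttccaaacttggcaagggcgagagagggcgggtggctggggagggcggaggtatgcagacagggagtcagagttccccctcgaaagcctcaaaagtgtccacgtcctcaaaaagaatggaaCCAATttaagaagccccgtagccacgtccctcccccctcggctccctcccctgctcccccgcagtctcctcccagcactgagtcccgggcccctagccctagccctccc
Col3a1: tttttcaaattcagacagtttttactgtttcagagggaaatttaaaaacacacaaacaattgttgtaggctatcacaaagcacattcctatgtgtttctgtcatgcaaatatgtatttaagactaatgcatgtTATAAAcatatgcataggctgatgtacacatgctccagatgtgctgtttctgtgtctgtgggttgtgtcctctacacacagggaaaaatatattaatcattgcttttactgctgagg
Timp1: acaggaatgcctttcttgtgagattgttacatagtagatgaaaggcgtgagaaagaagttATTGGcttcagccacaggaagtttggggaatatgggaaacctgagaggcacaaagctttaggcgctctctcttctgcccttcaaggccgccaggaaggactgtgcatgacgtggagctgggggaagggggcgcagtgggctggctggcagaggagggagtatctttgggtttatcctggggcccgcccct
Vim: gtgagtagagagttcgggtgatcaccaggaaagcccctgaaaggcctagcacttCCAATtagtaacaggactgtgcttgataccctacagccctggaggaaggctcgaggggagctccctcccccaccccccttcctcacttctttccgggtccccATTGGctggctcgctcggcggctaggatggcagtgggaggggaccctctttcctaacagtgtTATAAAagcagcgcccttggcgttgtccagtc
Of the 34 members, 23 had an entry in the promoter table. The letters CCAAT were found in 9 of these 23 (39.1%) and in 33.8% of all 32851 windows of that length, and TATAAA in 3 (13%) and in 12.4% of all windows. A member was counted once, if any of its windows held the letters, while the shares over all count each window. The 2 kinds of share are therefore not in the same unit. The motifs did not overlap in the 4 sequences shown. The 4 windows do not share 1 arrangement: Vim holds both kinds of letters, Col1a2 and Timp1 only CCAAT and Col3a1 only TATAAA.

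Values are log2 signals of a gene's brightest probe set, as deposited, unless stated. Array medians lay between 6.55 and 6.65, and array pairs correlated at 0.982 to 0.993 within groups and 0.976 to 0.993 between them, over all probe sets other than controls. Endocrine markers were bright and steady: the log2 of their summed signal was 17.45 to 17.61 after BPA and 17.48 to 17.53 in controls. The mean 3′ minus 5′ balance of the array's control transcripts, a sign of RNA length, was 2.86 to 3.06 after BPA and 3.26 to 3.54 in controls, without overlap. Gapdh (2.58 to 2.99 after BPA, 3.40 to 3.79 in controls) and beta-actin (2.61 to 2.98, 3.35 to 3.80) separated the groups. Transferrin receptor (2.22 to 2.42, 2.10 to 2.43) and pyruvate carboxylase (3.83 to 4.08, 3.98 to 4.26) overlapped. The groups compared below thus also differed in mean balance, and the design does not separate the 2. The part of the balance in the group differences was examined only as a covariate, in the closing section. The filter on dim probe sets, a mean over the 6 arrays above the median of all (6.60), kept the brightest probe set of all 34 members and 54 of their 70 probe sets. Over the whole array it kept 11787 of 18193 genes and 22518 of 45037 probe sets.

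By their brightest probe sets, the members were about as bright as other genes that passed the filter. The median member stood at the 79.0 percentile of all probe sets and the median of all genes tested at 80.3. Both the filter and the choice of the brightest probe set raise these figures. Over all 18193 genes without the filter the median was 66.0, and all 34 members passed the filter. Of the 34, 5 members were in the top 5% and 11 in the top 10%. Col4a1, which encodes the main collagen of basement membranes, ranked 637th, at the 98.6 percentile. It was followed by Rgs5, a regulator of G protein signalling that marks pericytes, at the 97.1 percentile, and by Dcn, which encodes the collagen-binding proteoglycan decorin, at the 96.4 percentile. Sparc and Timp3 came next, at the 95.2 and 95.1 percentiles. The dimmest were Fbln1 (56.1), Col1a1 (58.3) and Timp1 (59.6). Probe sets differ in their affinity, so these are ranks of array signal and not of transcript number.

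BPA was set against vehicle to ask whether the matrix genes of the islet differ after treatment. None of the 34 members passed limma's test at an adjusted p under 0.05, in either direction, and their smallest adjusted p was 0.747. The whole array gave the same: 0% of the 22518 probe sets passed with higher signal and 0% with lower signal. At an unadjusted p under 0.05, 1 member was higher, Tagln, and none lower, where 3.98% of the 11787 genes tested were higher and 1.36% lower. The groups did not overlap for 2 members, Tagln and Col6a2, both higher after BPA; 8.48% of all genes tested had such a higher order and 3.53% the lower one.

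The direction of the differences was less even. BPA arrays had the higher mean for 25 of the 34 members (73.5%), against 57.7% of all genes tested, and the median difference was 0.20 (log2) over the members and 0.028 over all genes tested. The range ran from -0.28 for Timp3 to 1.72 for Fn1. By role, the median was 0.31 for the 7 glycoproteins and small proteoglycans, 0.28 for the 5 fibrillar collagens, 0.25 for the 3 chains of collagen VI and 0.24 for Thy1 and Vim. It was 0.10 for the 6 pericyte and contractile genes, 0.078 for the 8 basement membrane genes and -0.015 for the 3 genes of matrix turnover. In bulk islets, a change in the number of cells of a type and a change in RNA per cell cannot be told apart.

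The size of this shift depended on 1 array of each group. Without BPA replicate 1 the median was 0.11, with 28 of 34 members higher, where all genes tested had a median of 0.018. Without control replicate 3 it was 0.083, with 21 of 34 higher, against 0.015 over all genes tested. With both left out, a choice made after seeing the data that by construction takes away the highest BPA array and the lowest control array, it was -0.042, with 14 of 34 members higher, while all genes tested gave 0.010 and 51.9% higher.

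**Figure D1:**
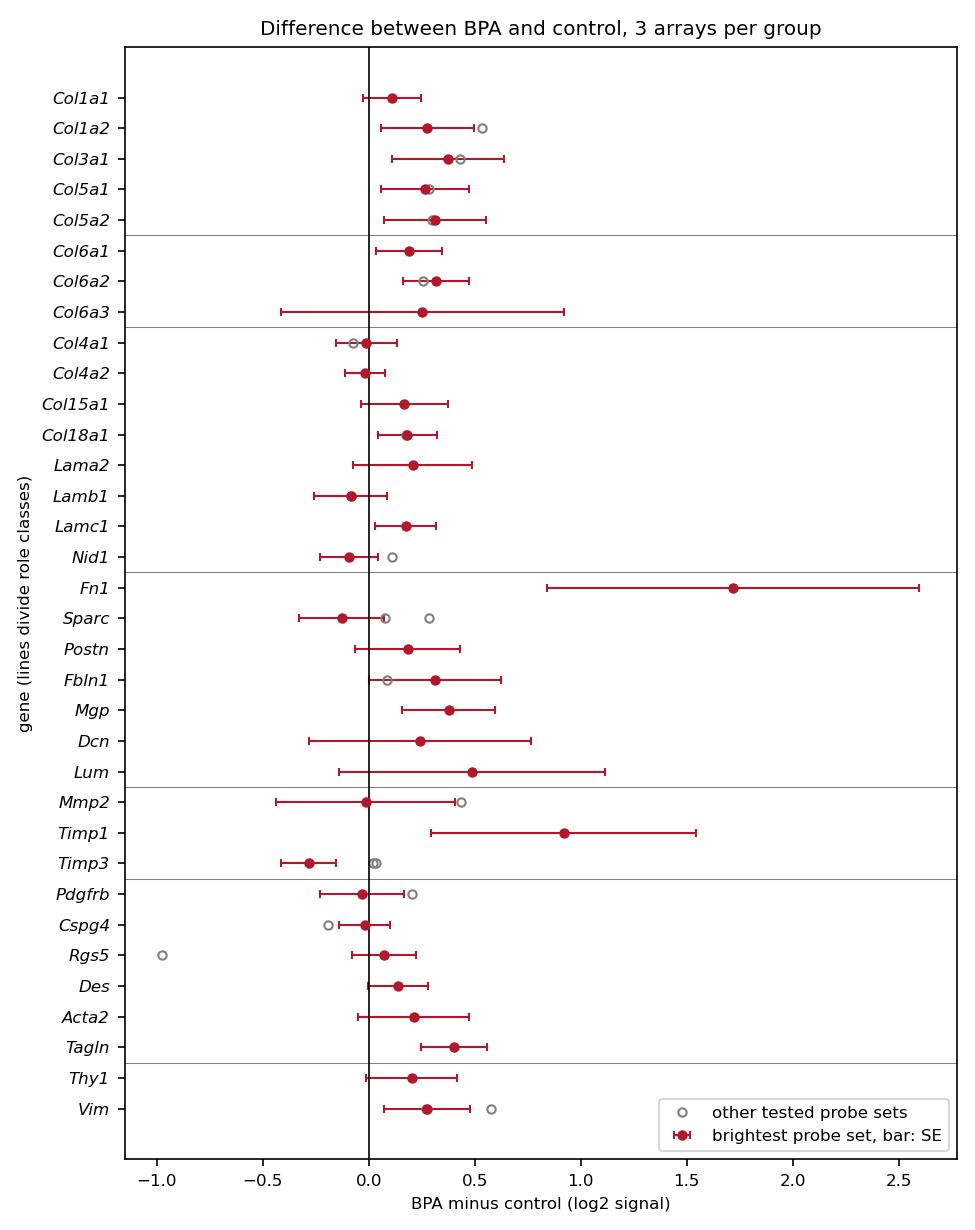
Difference between BPA and control (log2 signal, horizontal axis) for each of the 34 genes (vertical axis, lines between role classes), with filled points for the brightest probe set, bars for the SE from limma and open circles for other tested probe sets. Fn1 lies farthest from 0, at 1.72 with an SE of 0.88, and 25 of the 34 filled points lie above 0.

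Over the 6 arrays the members varied more than most genes. The range from the lowest to the highest array exceeded 1 (log2) for 12 of 34 members, against 7.44% of all genes tested, and the median range was 0.78 for members and 0.47 for all genes tested. BPA replicate 1 was the highest of the 6 arrays for 12 members (35.3%), against 22.5% of all genes tested. Control replicate 3 was the lowest for 20 members (58.8%), against 21.7% of all genes tested, and the highest for none. For 11 members (32.4%) both held at the same time, which was so for 9.43% of all genes tested: Col1a2, Col3a1, Col5a1, Col5a2, Col18a1, Fn1, Dcn, Lum, Mmp2, Timp1 and Vim.

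The first principal component of the members, their main axis of variation, held 62.0% of their variance and scored BPA replicate 1 at 4.01, control replicate 3 at -2.96 and the other 4 arrays between -0.76 and 0.055. Of the 34 genes, 27 had a positive weight on it, and the heaviest were Fn1 (0.58), Timp1 (0.42) and Lum (0.35). Genes were not scaled to equal variance, so the most variable ones weigh most. Some positive weights were near 0, such as those of Rgs5 (0.00076) and Col4a2 (0.0017). The second component held 27.3% and scored BPA replicates 1 and 3 at 1.08 and 1.82 and control replicate 3 at 1.13, against -1.48 for BPA replicate 2 and -1.16 and -1.39 for control replicates 1 and 2.

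**Figure D2:**
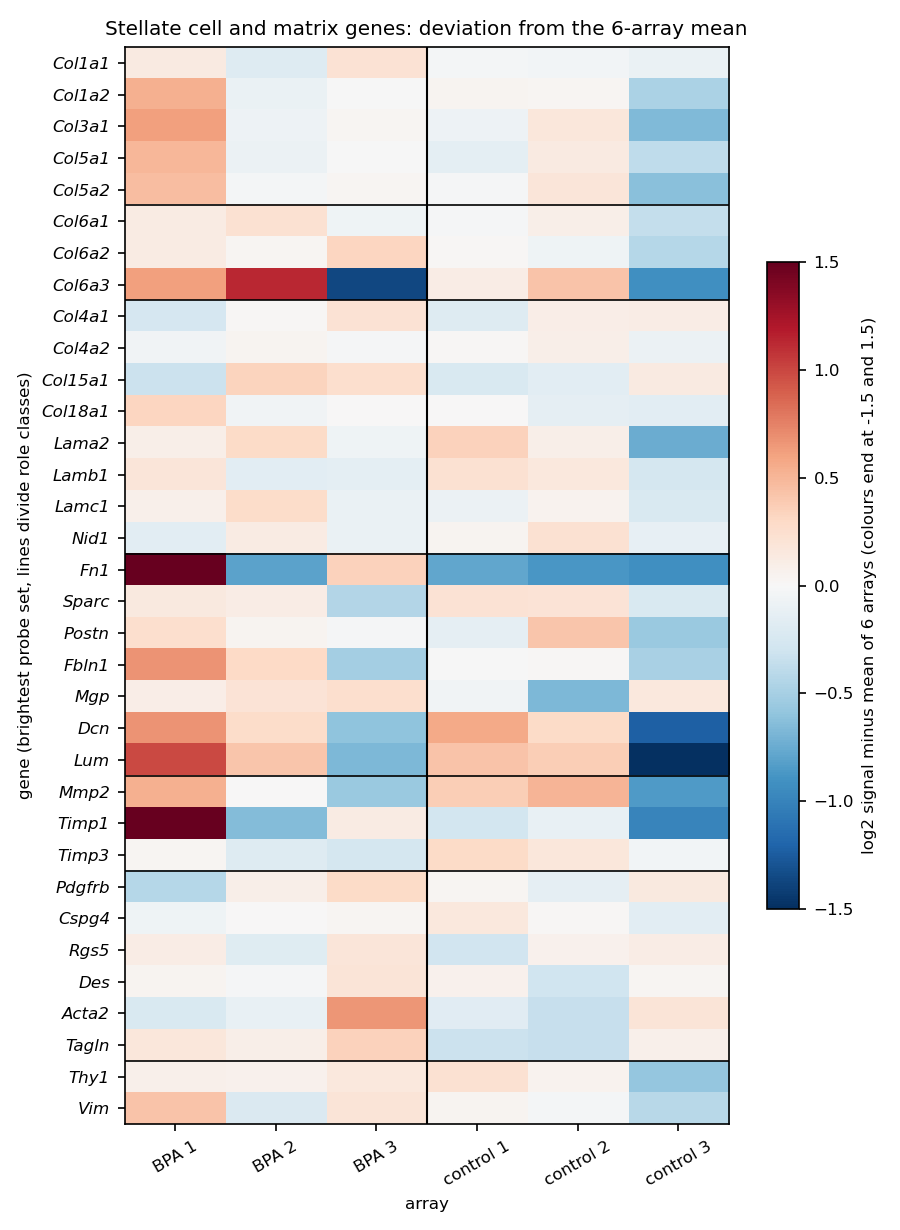
Deviation of each gene's log2 signal from its mean over the 6 arrays (colour), with arrays as columns (BPA replicates 1 to 3, then control replicates 1 to 3) and the 34 genes as rows in their role classes. Red gathers in BPA replicate 1 and blue in control replicate 3, the highest array for 12 members and the lowest array for 20 members.

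Fibrillar collagens form the banded fibres that give tissue its tensile strength, and 4 of the 5 here shared their highest and lowest arrays. Col3a1, which encodes the chain of collagen III, read 11.85, 11.15 and 11.26 in BPA replicates 1, 2 and 3, against 11.16, 11.41 and 10.58 in control replicates 1, 2 and 3. Col1a2, a chain of collagen I, read 11.36, 10.73 and 10.82 after BPA and 10.87, 10.86 and 10.35 in controls. Col5a2, a chain of the collagen V that nucleates fibrils, read 10.18, 9.70 and 9.75 after BPA and 9.70, 9.90 and 9.09 in controls. In each of these, as in Col5a1, BPA replicate 1 stood above and control replicate 3 below the other 4 arrays.

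The groups overlapped for Col1a2, Col3a1, Col5a1 and Col5a2. Col3a1 averaged 11.42 ± 0.37 in BPA islets, against 11.05 ± 0.43 in control islets (SD, 3 arrays a group), a difference of 0.37 ± 0.26 (SE, limma adjusted p = 0.850). Col1a2 differed by 0.28 ± 0.22 (adjusted p = 0.863), Col5a1 by 0.26 ± 0.21 and Col5a2 by 0.31 ± 0.24 (adjusted p = 0.862 for both). Col1a1, the partner chain of Col1a2, did not follow them: its probe set was dimmer, ranged over 0.41, with its top value in BPA replicate 3 (7.41) and its bottom value in BPA replicate 2 (6.99). The other tested probe sets of Col1a2, Col3a1, Col5a1 and Col5a2 differed the same way, by 0.54, 0.43, 0.28 and 0.30.

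Collagen VI, a beaded filament that links cells to the interstitial matrix, is built of 3 chains encoded by the genes listed here, and these did not vary alike. Col6a3 was the most variable, at 10.70, 11.21 and 8.72 in BPA replicates 1, 2 and 3 and 10.19, 10.51 and 9.16 in control replicates 1, 2 and 3. Both replicate 3 arrays stood far below the other 4, and the difference of 0.25 ± 0.67 (SE, limma adjusted p = 0.959) was less than its SE. Col6a2 read 10.18, 10.09 and 10.38 after BPA against 10.07, 9.99 and 9.62 in controls. Every BPA array lay above every control array for Col6a2, with a difference of 0.32 ± 0.16 (SE, adjusted p = 0.796). Col6a1 differed by 0.19 ± 0.16.

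Basement membrane genes varied over a median range of 0.49 (log2), against 0.78 for all members. Collagen IV forms the sheet itself, laminins (Lama2, Lamb1, Lamc1) are its cell-binding layer and Nid1 encodes nidogen, which bridges both. Col4a1 read 12.45, 12.72 and 12.92 in BPA replicates 1, 2 and 3, against 12.51, 12.80 and 12.82 in control replicates 1, 2 and 3. Its difference was -0.012 ± 0.15 and that of Col4a2, the partner chain, -0.02 ± 0.10 (SE, limma adjusted p = 0.995 and 0.982). Col4a2 ranged over 0.17 in all, the narrowest range of the 34 members. Col15a1 and Col18a1, which encode collagens of the outer basement membrane zone, differed by 0.17 ± 0.21 and 0.18 ± 0.14.

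Among the laminins, Lama2 read 8.39, 8.60 and 8.24 after BPA and 8.64, 8.39 and 7.56 in controls, with control replicate 3 well below the other 5 arrays, and differed by 0.21 ± 0.28 (SE, adjusted p = 0.916). Lamb1 (-0.08 ± 0.17), Lamc1 (0.17 ± 0.14) and Nid1 (-0.09 ± 0.14) had overlapping groups, and the tested probe sets of Nid1 lay on both sides of 0.

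Of the glycoproteins, Fn1, which encodes the adhesive protein fibronectin, carried the widest difference of any member. It read 11.14, 7.32 and 8.46 in BPA replicates 1, 2 and 3, against 7.33, 7.24 and 7.19 in control replicates 1, 2 and 3. BPA replicate 1 stood 2.68 above the next array, while BPA replicate 3 lay above every control array and BPA replicate 2 among them. Its mean was 8.97 ± 1.96 in BPA islets, against 7.25 ± 0.07 in control islets (SD, 3 arrays a group), a difference of 1.72 ± 0.88 (SE, limma adjusted p = 0.798) that was 0.63 without BPA replicate 1. The second Fn1 probe set, below the filter, had its highest value, 4.69, in that array too.

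Timp1, which encodes a secreted inhibitor of matrix metalloproteinases, showed the same array. It read 9.19, 6.63 and 7.41 in BPA replicates 1, 2 and 3, and 7.01, 7.17 and 6.29 in control replicates 1, 2 and 3. BPA replicate 1 stood 1.79 above the next array, and BPA replicate 2 lay within the control range. The difference was 0.92 ± 0.63 (SE, adjusted p = 0.843), and 0.19 without BPA replicate 1.

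**Figure D3:**
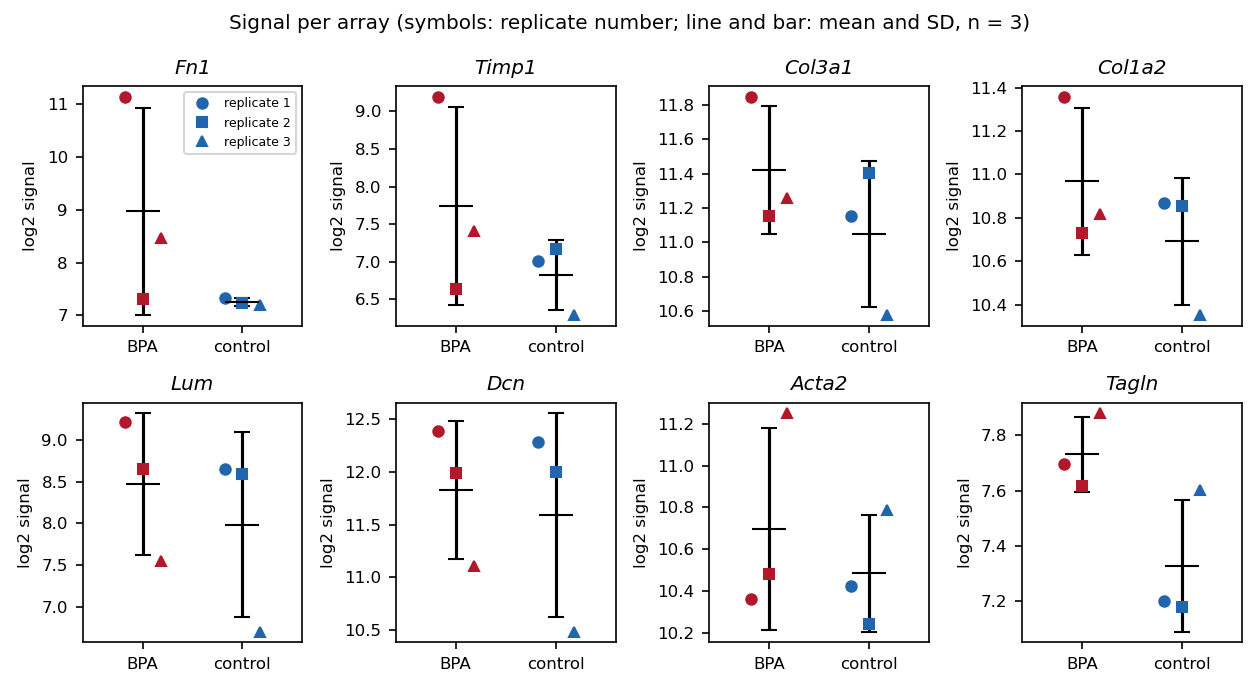
Log2 signal on each array (vertical axes, each with its own scale) for 8 genes, with BPA left of control, symbols for the replicate number and lines and bars for the mean and SD of 3 arrays. Fn1 and Timp1 are highest in BPA replicate 1 (11.14 and 9.19), with Fn1 at 8.46 in BPA replicate 3, Lum and Dcn are low in both replicate 3 arrays, and Acta2 is high in both.

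Small proteoglycans of interstitial fibroblasts had low values in both replicate 3 arrays. Lum, which encodes lumican, a regulator of collagen fibril diameter, read 9.22, 8.65 and 7.55 after BPA and 8.65, 8.59 and 6.70 in controls. Dcn read 12.39, 11.99 and 11.11 after BPA and 12.28, 12.00 and 10.49 in controls. Mmp2, the gelatinase that cleaves denatured collagen, read 8.98, 8.45 and 7.89 after BPA and 8.82, 8.96 and 7.60 in controls. In all 3 genes both replicate 3 arrays lay below the other 4, and control replicate 3 was the lowest.

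The group differences of these genes were small beside that drop: 0.49 ± 0.63 for Lum, 0.24 ± 0.52 for Dcn and -0.015 ± 0.42 for Mmp2 (SE, limma adjusted p = 0.912, 0.950 and 0.997). The other tested Mmp2 probe set differed by 0.44 ± 0.43 (SE, limma adjusted p = 0.888) and was also lowest in the replicate 3 arrays. Fbln1, a fibronectin- and elastin-binding glycoprotein gene, was also low in both, at 7.69, 7.32 and 6.51 after BPA and 7.02, 7.04 and 6.53 in controls. Col6a1, Col6a3, Lama2, Lamc1 and Sparc completed the 9 members (26.5%) with that order. The share over all genes tested was 22.6%, so it is near the background of these arrays.

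Of the other glycoproteins, Mgp, an inhibitor of calcification, differed by 0.38 ± 0.22 and Postn, a matricellular protein of activated fibroblasts, by 0.18 ± 0.25. Sparc, a collagen-binding matricellular protein, differed by -0.13 ± 0.20 on its brightest probe set and by 0.29 and 0.075 on its other tested ones. Timp3, a matrix-bound inhibitor, had the lowest difference of the 34. It read 11.35, 11.13 and 11.06 after BPA and 11.62, 11.50 and 11.28 in controls. The groups overlapped by 1 array each, and the difference was -0.28 ± 0.13 (SE, adjusted p = 0.791). The remaining tested Timp3 probe sets differed by 0.03 and 0.02.

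Pericyte and contractile genes had other extreme arrays than the 4 fibrillar collagens above, a contrast that was not tested. In 5 of these 6 genes the highest array was BPA replicate 3, and in none was it BPA replicate 1. Of all genes tested, 14.2% were highest in BPA replicate 3 and 22.5% in BPA replicate 1. The other tested probe set of Rgs5 was highest in control replicate 1 and that of Pdgfrb in BPA replicate 2. Acta2, the smooth muscle actin of activated stellate cells and of vascular muscle, read 10.36, 10.48 and 11.25 in BPA replicates 1, 2 and 3, against 10.42, 10.24 and 10.79 in control replicates 1, 2 and 3. Both replicate 3 arrays stood above the other 4 for Acta2, as they did for Rgs5 and for Pdgfrb, the growth factor receptor of pericytes. With Col4a1 these were 4 members (11.8%), against 12% of all genes tested, a share near the background. The other tested probe sets of Rgs5, Pdgfrb and Col4a1 did not have that order. The difference for Acta2 was 0.21 ± 0.26 (SE, limma adjusted p = 0.909).

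Tagln, which encodes the actin-binding protein transgelin of contractile cells, had the smallest p of the 34. It read 7.70, 7.62 and 7.88 after BPA and 7.20, 7.18 and 7.60 in controls. The lowest BPA array lay just above the highest control array, and the BPA mean was 7.73 ± 0.13, against a control mean of 7.33 ± 0.24 (SD, 3 arrays a group), a 1.32-fold higher signal. The difference of 0.40 ± 0.16 did not pass (SE, limma adjusted p = 0.747), and it was 0.33 to 0.54 with each array left out in turn.

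Rgs5 read 12.08, 11.79 and 12.16 after BPA and 11.69, 12.04 and 12.09 in controls on its brightest probe set, a difference of 0.07 ± 0.15. Its next tested probe set disagreed, at 9.37, 10.64 and 11.86 after BPA and 12.02, 11.03 and 11.74 in controls, with a difference of -0.97 ± 0.60 (SE, adjusted p = 0.833). BPA replicate 1 was the lowest array there and not on the brightest probe set. Pdgfrb (-0.03 ± 0.20), Cspg4, the pericyte proteoglycan NG2 (-0.02 ± 0.12), and Des, the intermediate filament desmin of stellate and muscle cells (0.14 ± 0.14), had overlapping groups.

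Vim, the intermediate filament vimentin of mesenchymal cells, had the extreme arrays of those 4 collagens. It read 10.77, 10.12 and 10.53 after BPA and 10.38, 10.31 and 9.92 in controls, and differed by 0.27 ± 0.20 (SE, limma adjusted p = 0.857). Its second probe set differed by 0.58 ± 0.23 without overlap (SE, limma adjusted p = 0.748). Beside that of Tagln it was the only tested probe set of a member with an unadjusted p under 0.05, against 3.84% of all probe sets tested with a higher and 2.64% with a lower value. Thy1, a surface glycoprotein of fibroblasts and neurons, differed by 0.20 ± 0.21 and read 7.69 in control replicate 3, its lowest array.

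Several members had more than 1 tested probe set, and these did not always agree. Of the 17 such genes, all tested probe sets were higher after BPA in 8 and lower in 3, and they lay on both sides of 0 in 6: Nid1, Sparc, Mmp2, Timp3, Pdgfrb and Rgs5.

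Other genes of the matrix pathway gave no call either. Of 108 genes in 5 lists, covering enzymes of collagen synthesis, other matrix proteins, matrix receptors, growth factor signals and proteases, 75 were tested, and 0 passed limma's adjusted test in each direction; 1 had an unadjusted p under 0.05. Their median difference was 0.058, with 47 higher and 28 lower, and the range over the arrays exceeded 1 in 5 of them (6.67%). That gene was Tgfb3, a ligand of the pathway that induces collagen, at 0.34 ± 0.11 (SE, adjusted p = 0.674), without overlap between groups. Of all genes tested, 3.98% were higher and 1.36% lower at an unadjusted limma p under 0.05. Of the 75, 3 had no overlap with BPA higher and 3 with BPA lower, against 8.48% and 3.53% of all genes tested. The lowest of the 17 genes in the list of Tgfb3 was Pdgfc, a growth factor of mesenchymal cells, at -0.25 ± 0.13 (SE).

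Among the 17 collagen-processing enzymes 11 were higher, with a median of 0.04, P3h3 highest at 0.24 ± 0.11 and P4ha1, a prolyl hydroxylase subunit gene, lowest at -0.12 ± 0.25 (SE). The 17 other matrix proteins had 13 higher and a median of 0.13, from Tgfbi at -0.10 ± 0.26 to the elastic fibre gene Fbln2 at 0.32 ± 0.21. The 13 receptors had 7 higher and a median of 0.03, from the hyaluronan receptor gene Cd44 at -0.37 ± 0.33 to the integrin gene Itgb1 at 0.35 ± 0.19. The 11 other proteases and inhibitors had 7 higher and a median of 0.02, from Adamts1 at -0.34 ± 0.23 to Timp2 at 0.19 ± 0.16. The lists differed in their extreme arrays. BPA replicate 1 was the highest array for 7 of 17 processing enzymes, 7 of 17 other matrix proteins and 5 of 11 proteases and inhibitors, but for 1 of 13 receptors and 2 of 17 growth factor genes. Control replicate 3 was the lowest for 9, 8 and 4 genes of the first 3 lists, and for 3 receptors and 4 growth factor genes.

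Markers of other cell types moved over the same arrays. All 15 tested acinar genes, of 18 listed and 16 on the array, had their maximum in BPA replicate 1 and their minimum in control replicate 3. The log2 of the summed signal of the 16 acinar genes on the array was 17.18 to 18.36 after BPA and 16.19 to 18.16 in controls. The widest group difference of those tested was that of Gp2, a zymogen granule protein gene (0.76), and the narrowest that of the lipase-related Pnliprp2 (0.16). Of 11 tested macrophage genes (15 listed, 15 on the array) 9 were highest in BPA replicate 1. The log2 of the summed signal of all 15, tested or not, was 12.50 to 13.50 after BPA and 12.30 to 12.77 in controls. Lyz2, a lysozyme gene, read 10.77, 8.65 and 9.22 after BPA and 8.79, 8.44 and 8.08 in controls, and had the widest difference of its list (1.11), where the complement gene C1qb had the lowest (-0.081).

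The 4 tested inflammation genes (12 listed, 11 on the array) were all highest in BPA replicate 1, the array of the high Fn1 and Timp1. All 11 inflammation genes on the array, tested or not, summed to 10.54 to 12.76 after BPA and 10.77 to 10.97 in controls (log2). Cxcl2, a neutrophil chemokine gene, read 11.00, 6.59 and 8.99 after BPA and 7.54, 8.13 and 7.48 in controls. The narrowest difference among the 4 tested genes was that of the cytokine gene Il1b, at 0.22 ± 0.23 (SE). Endothelial genes kept another order: of 11 tested, of 12 listed and on the array, 1 was highest in BPA replicate 1 and none lowest in control replicate 3. All 12 endothelial genes, tested or not, summed to 13.50 to 13.86 after BPA and 13.62 to 13.80 in controls. Those tested differed by -0.15 (Plvap) to 0.51 (Vwf). Of the 4 tested duct genes (8 on the array) 3 and of the 7 tested glia and nerve genes (8 on the array) 3 had their maximum in BPA replicate 1. It was 1 of 4 mesothelial genes (9 on the array) and 0 of 2 fat genes (5 on the array). Control replicate 3 was the lowest for 5 glia and nerve, 2 duct, 7 macrophage and 1 inflammation genes of those tested, and for 0 mesothelial and 0 fat genes. The share over all genes tested was 21.7%. Duct genes differed by 0.017 (Krt19) to 0.42 (Muc1), and glia and nerve genes by -0.0026 (Mbp) to 0.74 (Th). Mesothelial genes differed by 0.082 (Krt8) to 0.27 (Slpi), fat genes by -0.082 (Fabp4) to 0.039 (Retn) and endocrine genes by -0.21 (Pdx1) to 0.42 (Ppy). None of these passed the adjusted test. No marker on these arrays reads 0, since even dim probe sets carry signal, and the part of acinar, macrophage or inflammatory RNA in the members' differences was not tested.

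**Figure D4:**
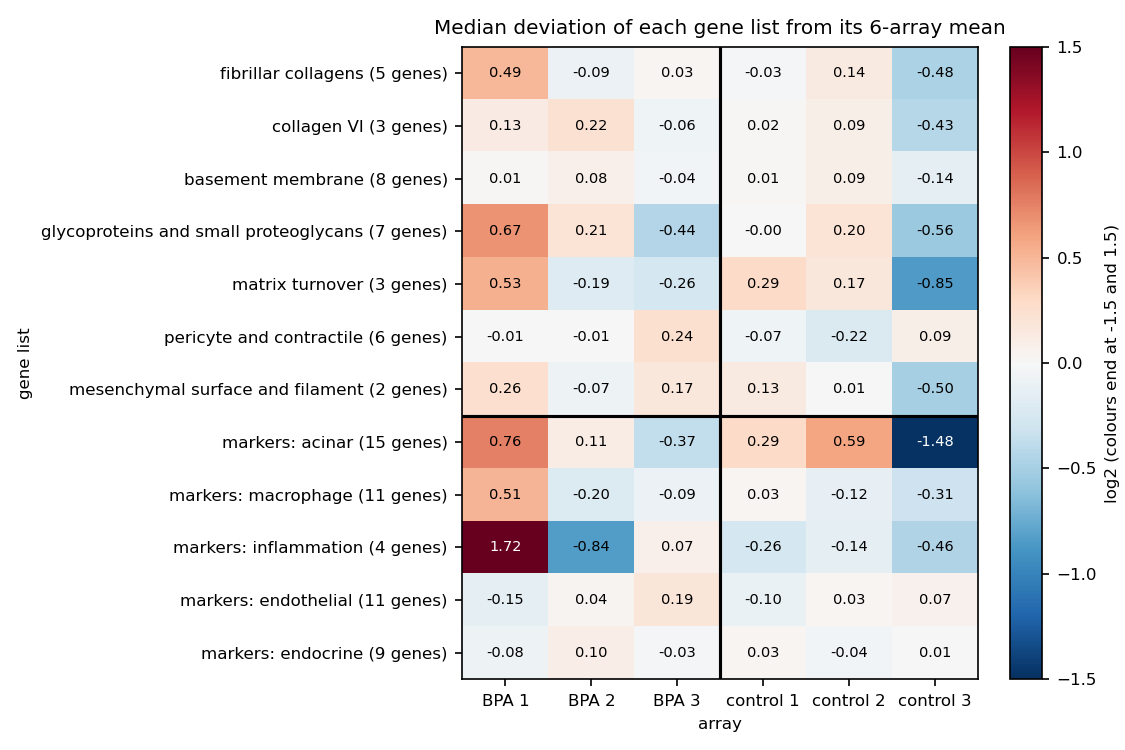
Median deviation of each gene list from its 6-array mean (log2, numbers and colour), with the 7 role classes above the line and markers of other cell types below it, BPA arrays left of control arrays. Fibrillar collagens read 0.49 in BPA replicate 1 and -0.48 in control replicate 3, where acinar markers read 0.76 and -1.48, while pericyte and contractile genes and endothelial markers show neither.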

How the data were processed

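The authors deposited 1 log2 signal per probe set and array. The software MAS5 is listed, per the submitters' processing notes, with no version or role; the low end of the values is unlike plain MAS5 signals, so the summary method is not known, which matters most for dim probe sets. Per the labels' protocols, 1 µg of total RNA gave the biotin-labelled cRNA. Detection calls were not used here, and the number of arrays limits the precision.

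Values were used as deposited. The table held 45101 probe sets, 64 of them array controls and left out, and 34945 of the rest had 1 gene, 932 several and 9160 none. The symbols of all 34 members were current in RefSeq. BPA was compared with control over 22518 probe sets by limma 3.58.1 in R 4.3.3 (two-sided, trended eBayes, adjusted after Benjamini-Hochberg, threshold 0.05). Each gene was represented by its brightest probe set. The script was tested on simulated data. The members and lists were chosen with earlier results of these data known. All members were named. Values per array are given for members with a range over 1, an unadjusted p under 0.05 or the highest signal of their role class. Col6a2 and the second Rgs5 probe set were added after their values were seen. Such values are also given for Lyz2 and Cxcl2, outside that rule. Of other lists the genes with the largest and smallest difference are named. Figures were drawn with matplotlib 3.10.9.

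Alternatives were 3 other scalings, eBayes robust or untrended, a filter at the 75th percentile or none, a replicate block, arrays left out, other probe set choices and a covariate.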

Additional observations from a re-analysis of the deposited data

How the results depend on the processing

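In 19 alternatives no member passed limma's test (smallest adjusted p 0.249), and the count of 0 probe sets past it held in all that refitted the table; 1458 probe sets had an unadjusted p under 0.05, and 444 to 3152 in the alternatives. The median member difference was 0.16 to 0.22 under quantile, median and cyclic loess scaling and 0.083 to 0.26 with each array left out. It was 0.10 without both replicate 3 arrays, and with RNA balance as covariate 0.075 with 18 of 34 higher. That balance is the mean 3′ minus 5′ signal of control transcripts, of which Gapdh and beta-actin separated the groups and the others did not. The mean itself did not overlap between groups (2.86 to 3.06 after BPA, 3.26 to 3.54 in controls). Values adjusted for it therefore rest on extrapolation and cannot tell treatment and balance apart. Members higher after BPA numbered 21 to 28 with each array left out. Leaving out BPA replicate 1 and control replicate 3 together, chosen after seeing the data, gave a median of -0.042 and 14 higher. Of the 15 members whose difference was at least its SE, that setting turned Col1a2 (-0.088), Col3a1 (-0.074), Col5a1 (-0.042), Col5a2 (-0.075), Fbln1 (-0.11), Timp1 (-0.072) and Vim (-0.017); this choice lowers the difference by construction. The covariate turned Col1a2 (-0.11), Col18a1 (-0.19), Fn1 (-0.85), Fbln1 (-0.25), Mgp (-0.12), Timp1 (-0.50) and Vim (-0.052), and the second-brightest probe set Lamc1 (-0.093) and Timp3 (0.032); the cause was not tested. Members with smaller differences changed sign more freely, and Col1a1, Col6a1, Col6a2, Col15a1 and Tagln kept theirs in every alternative that gave a value. The replicate block gave 0 probe sets past the test, 3042 at an unadjusted p under 0.05 and 4 members at that p. Same-numbered arrays deviated together for number 1 (r = 0.476) and 3 (0.706) and less so for 2 (0.078), where BPA replicate 2 was closer to control replicate 1 (0.397). As this was not so for every number and the labels name no shared source, the arrays were not treated as pairs; what same-numbered arrays share was not tested.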
